A study of Mus musculus with 214 samples.

Results

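Tubulin genes encode the protein subunits of microtubules, and 10 of them (Tuba1a, Tuba1b, Tuba1c, Tuba4a, Tuba8, Tubb2a, Tubb2b, Tubb4b, Tubb5 and Tubb6) were followed here by symbol in mouse liver after N-nitrosodimethylamine (NDMA), a DNA-methylating carcinogen that is activated in hepatocytes. All 10 were rows of both expression tables, which list 18647 genes in wild-type (WT) mice and 19540 in Mgmt-/- mice, which lack the methyltransferase that repairs O6-methylguanine. Every mouse, controls included, was on a C57BL6 background and carried the reporter alleles RaDR+/+;GPT+/+. The WT genotype is therefore RaDR+/+;GPT+/+ and the other is RaDR+/+;GPT+/+;Mgmt-/-. Mice of both sexes were injected intraperitoneally with NDMA at 3.5 mg/kg on postnatal day 8 and 7 mg/kg on postnatal day 15, or with saline in equal volume, and livers were collected early (day 1, day 2 and day 5 post-exposure) or late (week 10 and month 10). Each mouse gave 1 library of 3′ digital gene expression, in which reads at the 3′ ends of polyadenylated RNA are counted. In time order, the WT saline groups held 21, 8, 7, 8 and 10 livers and the WT NDMA groups 26, 8, 8, 8 and 13. The Mgmt-/- saline groups held 12, 7, 6, 8 and 12 livers and the Mgmt-/- NDMA groups 12, 8, 8, 8 and 13.

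Depth was 150038 to 4791649 reads per WT library (median 1700411) and 713584 to 7740710 per Mgmt-/- library (median 2306713.5), and 4 WT NDMA libraries had under 300000. Values below are normalised counts, that is, reads divided by a size factor per library, in 1 table per genotype, taken here as scaled separately, so a WT level and an Mgmt-/- level are not on one scale. Mgmt itself had 13.0 to 130.0 normalised counts in WT libraries (median 45.8) and 0 to 9.67 in Mgmt-/- libraries (median 1.09). Of the Mgmt-/- saline day 5 libraries, 2 went against their liver label and were dropped throughout. Their values of Kap, a kidney androgen-regulated gene, were 6147 and 7562, while no kept library passed 13.9. The 5 hepatocyte markers (Fgb, Ttr, Alb, Apoa1 and Serpina1c) averaged 470 and 319 in those libraries and at least 15874 in every kept library. The mean over 5 kidney markers was 4432 and 4983, against at most 4.30 in the kept libraries. In 2 WT day 1 NDMA libraries the sex-linked genes went against the labelled sex.

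α-tubulin and β-tubulin form a heterodimer that polymerises end to end into protofilaments, and these associate into the hollow microtubule. Mammals have several genes for each subunit. Their products, the isotypes, differ mostly in the acidic C-terminal tail, where enzymes add and remove tyrosine, glutamate and other groups. Tuba4a is an isotype whose tail is encoded without the terminal tyrosine. In hepatocytes microtubules carry secretory vesicles of plasma proteins and direct membrane to the bile canaliculus, in dividing cells they form the spindle, and in all cells an excess of free tubulin dimer lowers the stability of tubulin mRNAs, which is known as tubulin autoregulation.

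By GENCODE vM21 on GRCm38, the α-tubulin genes lay on 3 chromosomes. Tuba1b (chr15:98931425-98934565, minus strand), Tuba1a (chr15:98949837-98953703, minus strand) and Tuba1c (chr15:99029891-99038110, plus strand) were neighbours, Tuba4a lay at chr1:75214228-75219865 (minus strand) and Tuba8 at chr6:121210696-121226854 (plus strand). Of the β-tubulin genes, Tubb2a (chr13:34074274-34078007) and Tubb2b (chr13:34126748-34130466) were neighbours on the minus strand, Tubb4b lay at chr2:25222160-25224702 (minus strand), Tubb5 at chr17:35833921-35838306 (minus strand) and Tubb6 at chr18:67390717-67402749 (plus strand). All are protein coding, with 4 exons in the longest transcript except Tuba8 with 5.

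Because reads were 50 bases long and came from the 3′ end, stretches that genes share matter for the counts. Of the 451 windows of 50 bases in the last 500 transcript bases, 56.3% in Tuba1a, 63.6% in Tuba1b and 68.3% in Tuba1c were found unchanged in one another or in pseudogenes. For Tubb2a this share was 42.4% (with Tubb2b, Tubb4a and a pseudogene) and for Tubb4b it was 35.3% (with pseudogenes only). How reads with several matches were counted is not given in the sources used here, so the counts of these 5 genes are uncertain to that extent. For Tuba4a, Tuba8, Tubb2b, Tubb5 and Tubb6 no window was shared.

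The promoters of Tubb4b, Tuba8 and Tubb2a are shown because of their NDMA fold changes in Mgmt-/- livers, taken as differences of log2(normalised count + 1). Among the members, Tubb2a had the greatest at week 10 and Tuba8 at every other time (from few counts at month 10). Tubb4b had the next greatest at days 1 and 5. By the ratio of group means, Tuba8 (5.08) was above Tubb2a (4.66) at week 10, and Tubb6 (1.97) above Tubb4b (1.79) at day 5. The sequences are from RefSeq on GRCm38.p6, each read on the strand of its gene (minus for Tubb4b and Tubb2a, plus for Tuba8) and ending just before the annotated start, at chr2:25224703-25224952 (250 bases), chr6:121210484-121210695 (212 bases, with 38 bases next to the start left out because an annotated transcript begins there) and chr13:34078009-34078258 (250 bases). Capitals mark the CCAAT box, the TATAAA box of core promoters and the GGGCGG core of GC boxes, the last also where it lies on the opposite strand and so appears as CCGCCC.
Tubb4b: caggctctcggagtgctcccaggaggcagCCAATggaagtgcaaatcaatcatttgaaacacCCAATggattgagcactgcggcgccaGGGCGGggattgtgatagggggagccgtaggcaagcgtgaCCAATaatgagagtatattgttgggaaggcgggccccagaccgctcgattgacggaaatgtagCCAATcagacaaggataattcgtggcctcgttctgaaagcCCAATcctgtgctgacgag
Tuba8: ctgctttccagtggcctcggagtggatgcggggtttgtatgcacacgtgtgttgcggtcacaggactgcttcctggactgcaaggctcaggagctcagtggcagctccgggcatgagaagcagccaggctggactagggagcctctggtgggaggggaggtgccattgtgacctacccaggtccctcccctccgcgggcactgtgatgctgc
Tubb2a: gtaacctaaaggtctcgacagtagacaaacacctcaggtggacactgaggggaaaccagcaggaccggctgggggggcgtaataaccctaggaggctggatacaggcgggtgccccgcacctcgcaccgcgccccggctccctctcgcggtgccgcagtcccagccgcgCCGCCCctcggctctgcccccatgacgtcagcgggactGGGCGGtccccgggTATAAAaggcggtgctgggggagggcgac

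The Tubb4b promoter held 5 copies of CCAAT, the box bound by the NF-Y factor, and 1 GGGCGG, the core of the GC box bound by Sp1. The Tubb2a promoter held a TATAAA box whose first base was 29 bases before the start, and GGGCGG on both strands. None of the searched motifs was in the Tuba8 window. Both strands were searched in 250 bases upstream of 32851 mouse promoters. CCAAT was in 33.8% of them and in 4 of the 8 member promoters available (Tubb4b, Tuba1a, Tuba1c and Tubb5), TATAAA was in 12.4% and in 1 of 8 (Tubb2a), and GGGCGG was in 32.7% and in 5 of 8 (Tuba4a, Tubb4b, Tubb2a, Tuba1b and Tuba1a). The AP-1 motif TGANTCA was in 6.75% of promoters and in 0 of 8, and the p53 half-site was in 7.13% and in 1 of 8 (Tuba1c). These are matches of letters in a window, and no factor binding was measured.

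In Mgmt-/- livers most tubulin genes rose with NDMA, and 1 of them, Tuba4a, fell. Of the 9 members that passed the filter on low values (a mean of at least 5 normalised counts), 5, 7, 5, 7 and 3 rose at the 5 times in order, by limma with an adjusted p under 0.05 and a log2 fold change beyond 0.58 either way. Of all genes tested, 9.06%, 12.4%, 11.1%, 7.27% and 4.75% rose at these times. One of the month 10 calls, Tuba8, passed the filter through the NDMA livers only, so the count and median at that time carry that limit. Tuba4a fell at days 1, 2 and 5, when 8.64%, 7.5% and 6.71% of all genes tested fell. The median log2 fold change over the tested members was 0.69, 0.80, 0.69, 0.99 and 0.48 in the same order, and over all genes it was 0.02, 0.03, 0.03, 0.04 and -0.01. Fold changes are differences of log2(normalised count + 1), which understates the change of low genes. Tissue was measured in bulk, so fewer cells of a type and less RNA per cell cannot be told apart.

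**Figure D1:**
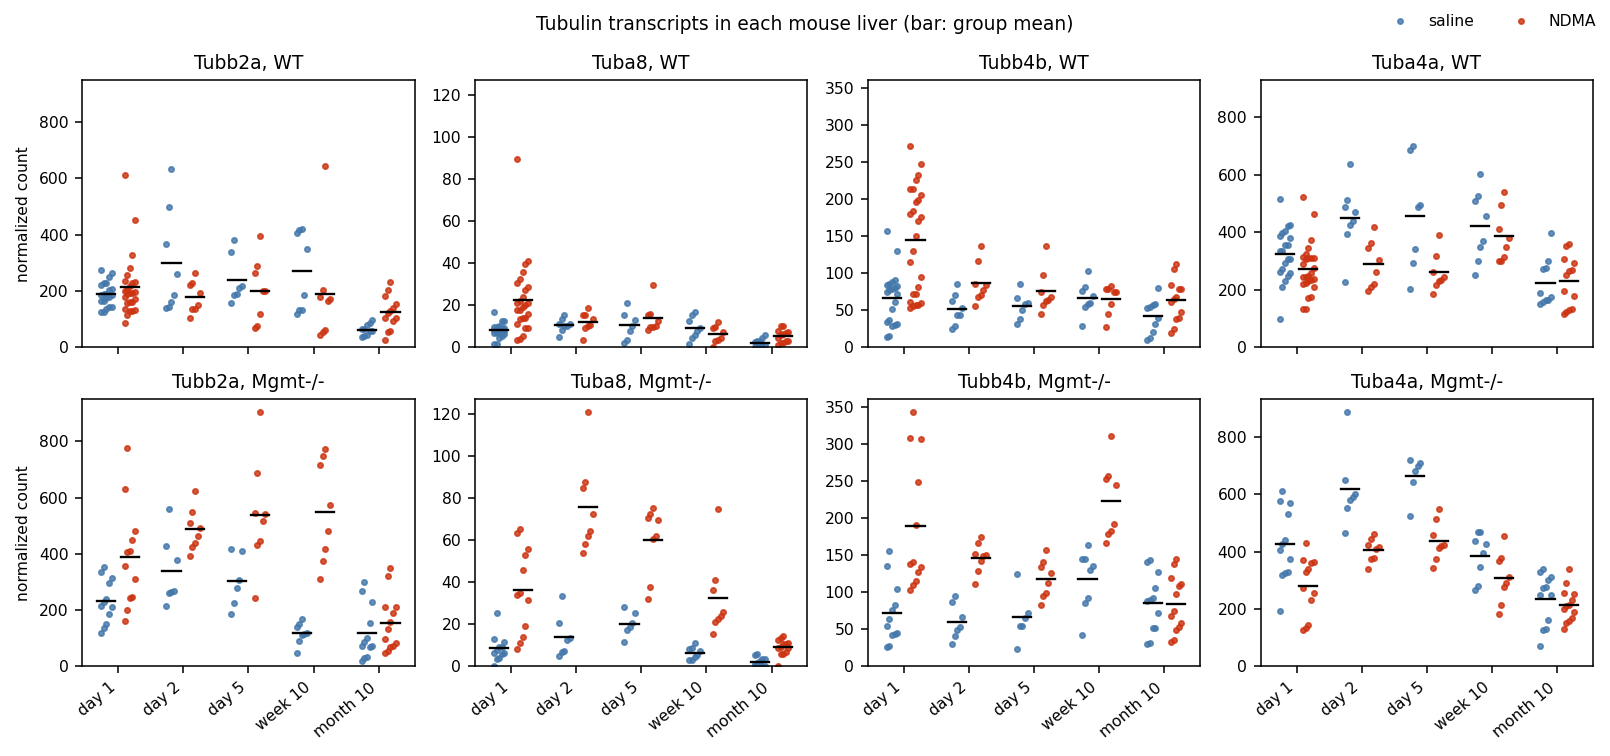
Normalised counts of Tubb2a, Tuba8, Tubb4b and Tuba4a (vertical axes) in each liver, by genotype and time after the second dose, with each point 1 mouse. In Mgmt-/- mice at week 10, the lowest NDMA value of Tubb2a was 310.4 and the highest saline value was 169, and Tuba4a is the gene whose NDMA points lie low at days 2 and 5.

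The α-tubulin genes Tuba1a, Tuba1b and Tuba1c encode nearly identical, broadly expressed proteins. Tuba1a is the main isotype of young neurons, and in Mgmt-/- livers it was the member of the trio that rose at every time. At week 10 it had 8.48 to 28.7 normalised counts in the saline livers (median 19.0) and 33.6 to 62.9 in the NDMA livers (median 49.3). The groups did not overlap, and the log2 fold change was 1.40 ± 0.23 (SE; limma adjusted p = 0.00017). At month 10 the saline livers ranged from 3.18 to 16.3 (median 8.58) and the NDMA livers from 6.94 to 46.3 (median 16.7), with 8 of 13 NDMA livers above every saline liver (1.00 ± 0.27, limma adjusted p = 0.015). Its early log2 fold changes (days 1, 2 and 5) were 0.79, 0.86 and 0.65 (limma adjusted p = 0.00017, 8.2e-05 and 0.0047).

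Tuba1b, the abundant housekeeping α-tubulin, passed both thresholds at 2 times. At day 2 its values were 70.3 to 137 in saline livers (median 102) and 139.8 to 197 in NDMA livers (median 168), so that all 8 NDMA livers lay above the 7 saline livers (log2 fold change 0.72 ± 0.13, limma adjusted p = 0.00018). At week 10 it had 14.2 to 52.8 (median 31.3) and 41.4 to 70.6 (median 58.9), with 5 of 8 NDMA livers above every saline liver (0.88 ± 0.23, limma adjusted p = 0.013). Tuba1c rose at day 2 and day 5 only, by 0.80 ± 0.14 and 0.69 ± 0.14 on the log2 scale (limma adjusted p = 5.8e-05 and 0.00069). At day 5 the saline livers had 82.1 to 121 (median 107) and 7 of the 8 NDMA livers lay above them (113 to 221, median 177). At week 10 the Tuba1c value was 0.63 ± 0.24 with a limma adjusted p of 0.094, and no NDMA liver lay above the highest saline liver (186).

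Tuba8, a divergent α-tubulin known from muscle, testis and brain, was low in saline livers and rose at all 5 times. At day 1 it had 0 to 25.2 normalised counts in saline livers (median 7.09) and 8.23 to 65.5 in NDMA livers (median 34.6), with 8 of 12 NDMA livers above every saline liver (2.04 ± 0.25, limma adjusted p = 6.2e-08). At day 2 it had 4.97 to 33.5 (median 12.3) in saline and 53.9 to 121 (median 68.6) in NDMA livers (2.51 ± 0.29, limma adjusted p = 1.2e-06). The groups did not overlap at day 2, nor at day 5 and week 10. At day 5 the saline range was 11.4 to 28.1 (median 19.7) and the NDMA range 31.9 to 75.6 (median 66.0; 1.52 ± 0.22, limma adjusted p = 8.5e-06). At week 10 the ranges were 2.83 to 11.2 (median 6.29) and 15.4 to 75.0 (median 24.8; 2.13 ± 0.32, limma adjusted p = 4.6e-05). Both groups were low at month 10. There 5 of 12 saline libraries were at 0 (highest 5.83, median 1.33) and 1 of 13 NDMA libraries was at 0 (highest 14.5, median 9.39), and Tuba8 passed the filter on low values there through the NDMA group (mean 9.11) and not the saline group (mean 1.96). The fold change at that time (1.92 ± 0.40, limma adjusted p = 0.0019) rests on those few counts.

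Tuba4a was the member that fell. At day 2 it had 466 to 885 normalised counts in the saline livers (median 589.8) and 339 to 460.1 in the NDMA livers (median 413), and all 8 NDMA livers lay below the 7 saline livers (-0.59 ± 0.12, limma adjusted p = 0.00032). At day 1 its range was 193 to 612 (median 415) in saline and 125 to 430.1 (median 300.3) in NDMA livers, which overlapped (-0.65 ± 0.13, limma adjusted p = 0.00018). At day 5 it was 524 to 719 (median 689) in saline and 342 to 549 (median 421) in NDMA livers, with 7 of 8 NDMA livers below every saline liver (-0.61 ± 0.12, limma adjusted p = 0.00033). The size of this fall depended on the scaling. When all libraries were given one total instead, the log2 fold change of Tuba4a was -0.45, -0.42 and -0.45 at days 1, 2 and 5 and passed the fold threshold at none of them, while the median of all genes moved to 0.20, 0.19 and 0.17 (0.24 at week 10), so that its distance below that median was close to the one above. Under that scaling the numbers of all genes that rose and fell went from 911 and 869 to 1616 and 512 at day 1, from 1170 and 710 to 1666 and 416 at day 2, from 1037 and 624 to 1442 and 413 at day 5 and from 704 and 376 to 1147 and 177 at week 10. At week 10 and month 10 the Tuba4a values were -0.34 ± 0.19 and -0.07 ± 0.18 (limma adjusted p = 0.30 and 0.85), and the groups overlapped.

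**Figure D2:**
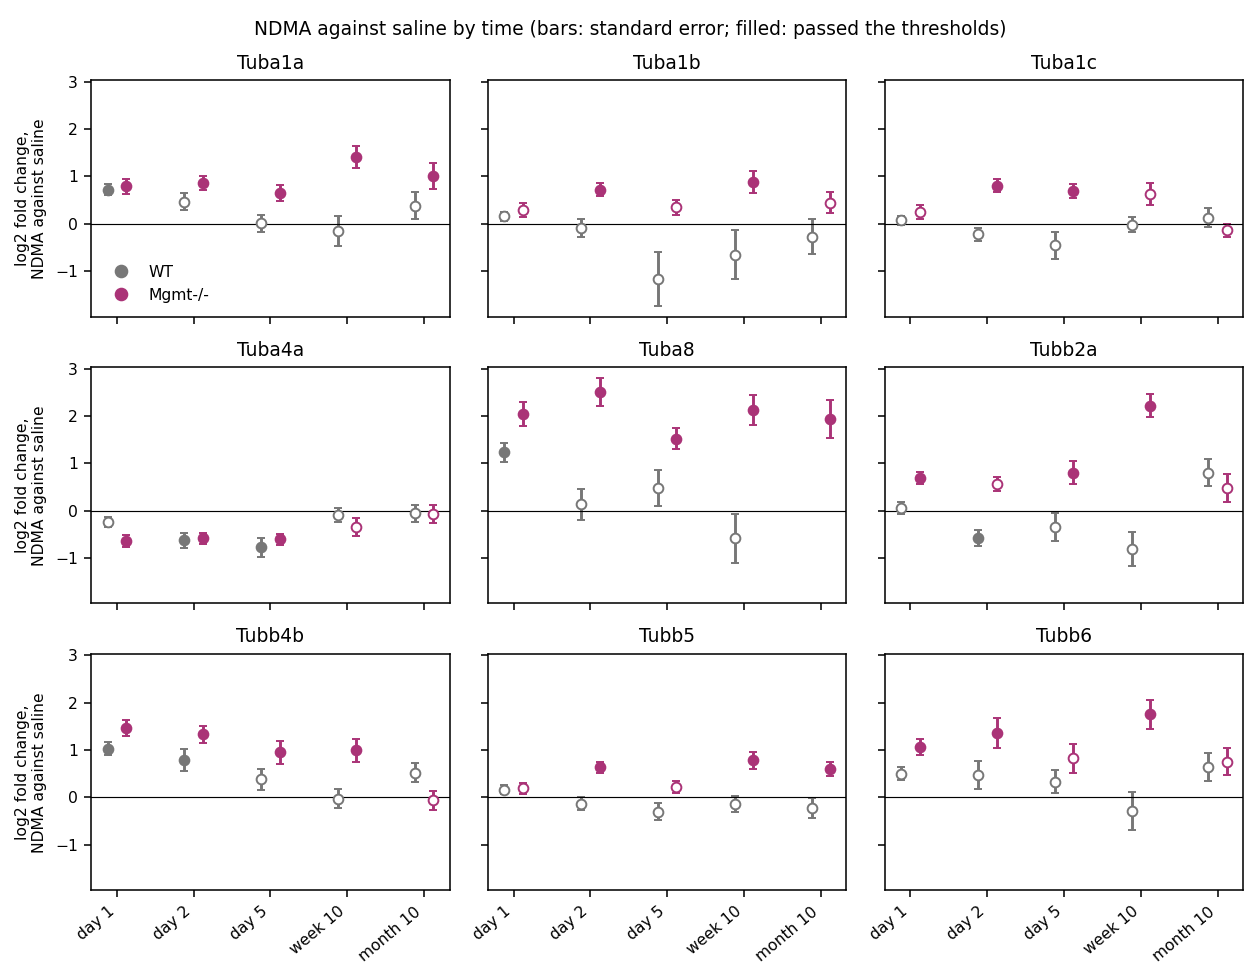
Log2 fold change of NDMA against saline (vertical axis) for the 9 tested members at each time in WT and Mgmt-/- livers, with bars of 1 SE and filled points where the adjusted p was under 0.05 and the size over 0.58. In Mgmt-/- livers Tuba8 lies at 2.04, 2.51, 1.52, 2.13 and 1.92 across the 5 times, and Tuba4a is filled below 0 at days 1, 2 and 5.

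Of the β-tubulins, Tubb2a (class II, best known from neurons) had the greatest difference of log2(normalised count + 1) of any member at week 10 in Mgmt-/- livers. By the ratio of group means Tuba8 was greater there, with 5.08 against 4.66 for Tubb2a. The normalised counts of Tubb2a at week 10 were 49.0 to 169 with saline (median 117) and 310.4 to 773 with NDMA (median 528). Every NDMA liver was above every saline liver, and the difference of 2.22 ± 0.24 on the log2 scale is 4.65-fold (limma adjusted p = 7.6e-07). At day 1 the saline livers had 119 to 352 (median 220.3) and the NDMA livers 162 to 775 (median 382; 0.69 ± 0.13, limma adjusted p = 0.00012). The day 5 values were 188 to 417 (median 294) and 244 to 903 (median 529; 0.80 ± 0.24, limma adjusted p = 0.027). At day 2 the log2 fold change of 0.55 ± 0.14 had a limma adjusted p of 0.0050 and was under the fold threshold. The groups overlapped at each of these early times. At month 10 they overlapped widely, with 19.9 to 301 (median 78.9) in saline and 47.0 to 349.6 (median 134) in NDMA livers (0.48 ± 0.30, limma adjusted p = 0.35).

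Tubb2b, its class II neighbour, was close to absent. It did not pass the filter at any time, it was at 0 in 101 of 117 WT and 68 of 94 kept Mgmt-/- libraries, and no kept library exceeded 3.47 normalised counts. At week 10 in Mgmt-/- mice it was at 0 in 8 of 8 saline livers and in 2 of 8 NDMA livers, with a highest value of 3.13. Both groups were too low for a fold change.

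Tubb4b (class IVb, a broadly expressed isotype that is also used in cilia) rose at days 1, 2 and 5 and at week 10. At day 1 it had 26.4 to 155 (median 59.3) in saline and 102 to 343 (median 139) in NDMA livers (1.46 ± 0.17, limma adjusted p = 2.5e-08), and all 12 NDMA livers were above the saline median. At day 2 the saline range was 30.1 to 94.5 (median 52.8) and the NDMA range 111 to 174 (median 149; 1.33 ± 0.18, limma adjusted p = 2.5e-06). At week 10 it was 41.8 to 164 (median 133) and 167 to 310.3 (median 218; 0.99 ± 0.23, limma adjusted p = 0.0052). The groups did not overlap at day 2 or week 10. At day 5 the fold change was 0.96 ± 0.24 (limma adjusted p = 0.0072), with 24.0 to 125 in saline and 82.6 to 157 in NDMA livers. By month 10 the medians were 89.2 and 74.0 and the log2 fold change was -0.06 ± 0.20 (limma adjusted p = 0.88).

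Tubb5, the class I housekeeping β-tubulin, rose at day 2, week 10 and month 10. Its day 2 values were 252 to 404 (median 285) in saline and 446 to 518 (median 495) in NDMA livers, and its week 10 values were 71.4 to 171 (median 128) and 184 to 255 (median 227). The groups did not overlap at either time, with log2 fold changes of 0.64 ± 0.11 and 0.78 ± 0.18 (limma adjusted p = 9.2e-05 and 0.0043). At month 10 it had 54.4 to 111 (median 87.3) in saline and 88.4 to 214 (median 124) in NDMA livers. There 9 of 13 NDMA livers lay above every saline liver, and the log2 fold change of 0.61 ± 0.15 was close to the threshold of 0.58 (limma adjusted p = 0.0073).

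Tubb6 (class V, a widely expressed minor isotype) rose at days 1 and 2 and at week 10. At day 1 it had 18.6 to 95.8 (median 47.2) in saline and 41.1 to 170 (median 103) in NDMA livers (1.07 ± 0.18, limma adjusted p = 1.1e-05). At day 2 the spread was wide, with 38.5 to 113 (median 56.7) and 60.9 to 249 (median 183; 1.37 ± 0.32, limma adjusted p = 0.0050). At week 10 the saline livers had 4.92 to 26.7 (median 12.3) and the NDMA livers 30.7 to 63.6 (median 39.6), with no overlap (1.76 ± 0.30, limma adjusted p = 0.00026). The day 5 and month 10 values, 0.83 ± 0.31 and 0.76 ± 0.28, did not pass (limma adjusted p = 0.069 and 0.079).

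At week 10 in Mgmt-/- livers, 6 of the 9 tested members (Tuba1a, Tuba8, Tubb2a, Tubb4b, Tubb5 and Tubb6) had no overlap between the 8 NDMA and 8 saline livers, with NDMA above saline, as had 2.4% of all genes tested. All 7 calls at this time passed with each library left out in turn. At day 2 the members without overlap were Tuba1b, Tuba8, Tubb4b and Tubb5, with NDMA above saline as in 6.19% of all genes tested, and Tuba4a, with NDMA below saline as in 3.02%. At day 5 it was Tuba8, with NDMA above saline as in 6%. Within day 2, 6 of 8 calls passed with each library left out in turn. The exceptions were Tubb5, lost in 1 of the 15 fits, and Tuba4a, lost in 5. At day 5, 3 of 6 calls did, and Tuba1a, Tuba4a and Tubb2a were lost in 3, 3 and 5 of the 14 fits. When the 2 dropped libraries were put back at day 5, Tuba1a (0.28) and Tuba4a (-0.52) no longer passed and Tubb6 (1.19) did.

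**Figure D3:**
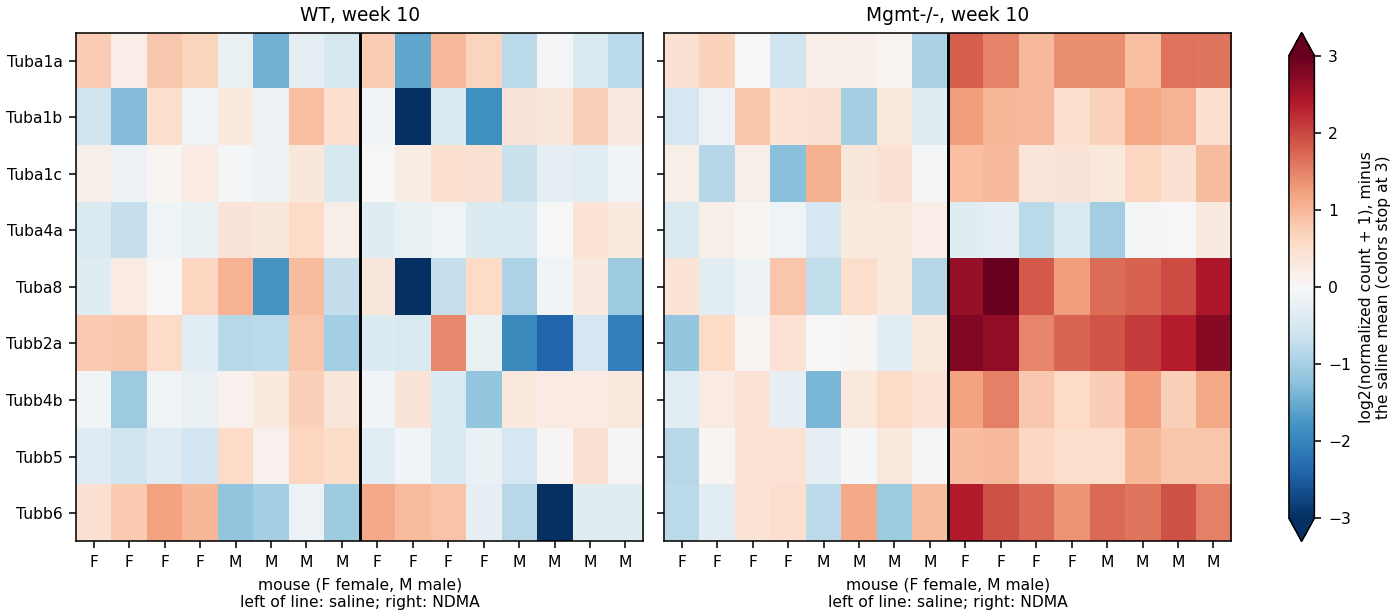
Heat map of log2(normalised count + 1) minus the mean of the saline livers of the same genotype at week 10, with 1 column per mouse (F female, M male) and 1 row per tested member, and with the colour scale ending at -3 and 3. The 8 Mgmt-/- NDMA columns are above the saline mean for Tubb2a, Tuba8, Tubb6 and Tuba1a, and the WT NDMA columns are mixed.

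Day 1 in Mgmt-/- mice spanned 2 runs, as the file headers name them, and the fits were repeated within each. In run 191212Eng (8 and 8 livers), Tuba1a, Tuba8, Tubb2a, Tubb4b and Tubb6 rose (0.92, 2.11, 0.86, 1.40 and 1.19), and Tuba4a, at -0.53, was under the fold threshold. In run 200803Eng (4 and 4 livers) Tubb4b rose (1.60) and Tuba4a fell (-0.89), while Tuba8 had 1.90 (limma adjusted p = 0.090), Tubb6 had 0.82, Tuba1a had 0.55 and Tubb2a had 0.34, none of which passed. Of all genes, 913 rose and 785 fell of 9781 tested in run 191212Eng, and 271 and 294 of 10268 in run 200803Eng. Every other Mgmt-/- time came from 1 run.

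In WT livers, fewer members passed and the changes were at the early times. At day 1, when 5.01% of genes tested rose, Tuba1a, Tuba8 and Tubb4b rose. Markers of other cell types also moved in WT livers at the early times and are given below. Tuba8 had 1.32 to 16.5 normalised counts (median 7.96) in saline and 3.49 to 89.7 (median 19.7) in NDMA livers, with 16 of 26 NDMA livers above every saline liver (1.23 ± 0.19, limma adjusted p = 2.0e-06). Tubb4b had 13.2 to 157 (median 74.5) and 52.6 to 271 (median 160.1; 1.03 ± 0.14, limma adjusted p = 1.0e-07), with 13 of 26 above every saline liver. Tuba1a had 23.5 to 72.2 (median 46.5) and 27.2 to 129 (median 67.6; 0.71 ± 0.12, limma adjusted p = 6.5e-06), with 11 of 26 above every saline liver. The groups overlapped for each of them. Tubb6, with 0.50 ± 0.14 (limma adjusted p = 0.0048), was under the fold threshold.

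The WT day 1 livers came from 3 runs. Tuba1a, Tuba8 and Tubb4b rose in run 191212Eng (0.70, 1.51 and 1.21; 8 and 8 livers) and in run 210901Eng (0.95, 1.52 and 1.21; 9 and 12 livers), where Tubb6 also rose (0.82). In run 200803Eng, with 4 saline and 6 NDMA livers, their values were 0.29, 0.25 and 0.29 and no member passed. In that run 0 of 8965 genes passed by limma in either direction, with 264 at an unadjusted p under 0.05. Of all genes, 485 rose and 457 fell of 8911 tested in run 191212Eng, and 567 and 478 of 8914 in run 210901Eng.

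At day 2 in WT, Tubb4b rose (24.8 to 85.0, median 48.5, in saline and 55.6 to 137, median 80.4, in NDMA livers; 0.79 ± 0.23, limma adjusted p = 0.043), when 3.33% of genes tested rose. Tuba4a (228 to 638, median 455, against 195 to 417, median 282; -0.63 ± 0.17, limma adjusted p = 0.023) and Tubb2a (140.5 to 632, median 222, against 102 to 263, median 169.7; -0.58 ± 0.17, limma adjusted p = 0.045) fell, when 2.91% of genes tested fell. At day 5 Tuba4a fell (203 to 700.0, median 489, against 187 to 390.2, median 239; -0.77 ± 0.20, limma adjusted p = 0.033), when 1.39% fell. Without the 1 NDMA library under 300000 reads at each time, the numbers of all genes higher and lower went from 285 and 249 to 461 and 410 at day 2 and from 192 and 120 to 474 and 320 at day 5, while these 4 member calls held (0.66, -0.66, -0.60 and -0.80). The groups overlapped in every case. None of these 4 calls passed with each library left out in turn, and sex and run cannot be told apart at these times, since the males were in one run and the females in another. On reads, which could be recovered for 5 of the 8 saline livers, edgeR and DESeq2 gave Tubb4b at day 2 log2 fold changes of 0.55 and 0.54, under the fold threshold, and the change of test and the loss of livers cannot be told apart.

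At week 10 and month 10, 0 of 9 and 0 of 8 tested members passed in WT by limma. Tuba8 was too low to be tested at month 10. Its counts there were few, with 6 of 13 NDMA livers above every saline liver and a ratio of group means of 2.54. At an unadjusted p under 0.05 there were 1 member at week 10 (Tubb2a, -0.82) and 3 at month 10 (Tubb2a 0.80, Tubb4b 0.53 and Tubb6 0.64). All genes together gave 2 and 0 calls by limma, with 350 and 757 at an unadjusted p under 0.05, 0 and 0 by edgeR, and 5 (3 higher and 2 lower) and 1 by DESeq2. The Tubb2a values at week 10 were 116 to 421 (median 267) in saline and 44.6 to 645 (median 167) in NDMA livers, which overlapped.

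The difference between the genotypes was tested directly, as the genotype by treatment term of edgeR on whole reads of genes in both tables, where a positive value means that the NDMA fold change was greater in Mgmt-/- mice. Of 9 tested members, 4 passed at day 2 (3.24% of all genes were greater), 1 at day 5 (1.97%) and 6 at week 10 (3.17%), all in that direction. With one total for all libraries, the numbers of all genes greater and smaller went from 271 and 162 to 371 and 120 at day 2. They went from 165 and 82 to 264 and 59 at day 5 and from 254 and 217 to 433 and 118 at week 10. At these 3 times no run held both genotypes, so genotype and run cannot be told apart, and at day 2 the WT saline group had 5 livers with recovered reads. The week 10 members were Tubb2a (2.96 ± 0.45, edgeR adjusted p = 1.6e-05), Tuba8 (2.83 ± 0.54, edgeR adjusted p = 0.00057), Tubb6 (1.90 ± 0.47, edgeR adjusted p = 0.0079), Tuba1a (1.34 ± 0.32, edgeR adjusted p = 0.0068), Tubb4b (1.04 ± 0.30, edgeR adjusted p = 0.028) and Tubb5 (0.93 ± 0.24, edgeR adjusted p = 0.012). At day 2 they were Tuba8 (2.31 ± 0.48, edgeR adjusted p = 0.0033), Tubb2a (1.15 ± 0.24, edgeR adjusted p = 0.0034), Tuba1c (1.08 ± 0.21, edgeR adjusted p = 0.0020) and Tubb5 (0.77 ± 0.20, edgeR adjusted p = 0.018). At day 5 it was Tuba1c (1.00 ± 0.29, edgeR adjusted p = 0.048). The term is a difference between the genotypes, so a WT value below 0 adds to it. By limma at week 10, all 9 tested members were below 0 in WT (-0.82 to -0.02, Tubb2a lowest) and none passed. At day 2 Tubb2a was at -0.58 in WT and at 0.55, under the fold threshold, in Mgmt-/- mice.

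No member passed at day 1 or month 10, where the lowest edgeR adjusted p over the members was 0.32 and 0.12. Of all genes, 2 passed higher and 5 lower of 9012 at day 1 and 87 and 56 of 9220 at month 10. When all libraries were given one total, these numbers were 14 and 4 at day 1 and 76 and 23 at month 10. Of the members, 1 had an unadjusted p under 0.05 at each time. At day 1 the term was 0.49 ± 0.35 for Tuba8, 0.18 ± 0.24 for Tubb4b and -0.02 ± 0.22 for Tuba1a, the members that had risen in both genotypes. For Tuba4a, which fell in both genotypes at days 2 and 5, the term was 0.14 ± 0.22 and 0.25 ± 0.24 at those times.

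**Figure D4:**
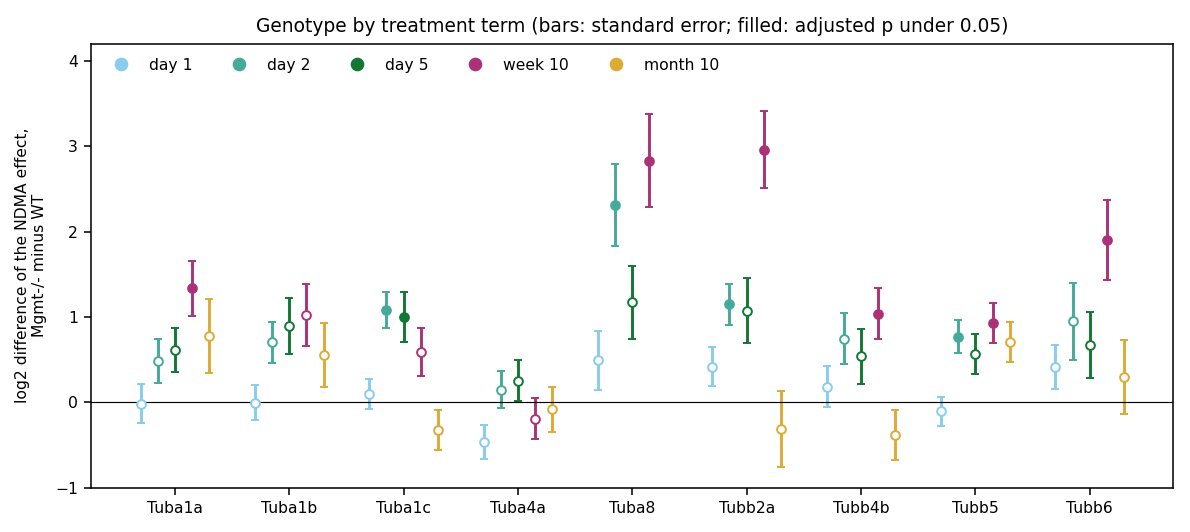
Genotype by treatment term (log2, vertical axis) of each tested member at the 5 times, with bars of 1 SE and filled points where the edgeR adjusted p was under 0.05. The filled points lie at day 2, day 5 and week 10, the highest being Tubb2a and Tuba8 at week 10 with 2.96 and 2.83.

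The sex by treatment term passed for no member at any time in either genotype by limma. The lowest limma adjusted p was 0.081, in Mgmt-/- mice at month 10, and the number of members with an unadjusted p under 0.05 was highest in Mgmt-/- mice at day 1, with 4 of 9, when 715 of 10055 genes had one. Over all genes this term gave calls only in Mgmt-/- mice at week 10 (NDMA log2 fold change higher in males for 8 genes and lower for 3) and month 10 (higher for 23 and lower for 11).

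Across ages, 3 to 7 of 9 tested tubulin genes were lower and 0 higher in saline livers in each comparison that ended at week 10 or month 10, and Tuba1c did not pass in either genotype. In WT mice at week 10 against day 1, Tuba1a, Tuba1b and Tubb6 were lower (-1.47, -1.51 and -2.27; limma adjusted p = 0.0054, 0.0046 and 0.0016), when 5.47% of genes tested were lower. At month 10 against day 1, 6 members were lower in WT, when 21.1% of genes were. These were Tuba1a (-2.73), Tubb6 (-2.67), Tuba1b (-2.24), Tubb2a (-1.71), Tubb5 (-1.24) and Tubb4b (-0.94), with limma adjusted p from 1.3e-10 to 0.025. The WT saline medians of Tuba1a were 46.5 (day 1), 58.1 (day 5), 22.0 (week 10) and 6.90 (month 10) normalised counts.

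In Mgmt-/- mice, Tuba1a, Tuba1b, Tubb5 and Tubb6 were lower at week 10 against day 1 (-1.23, -0.86, -0.75 and -1.35), when 9.44% of genes were, and the same 4 at month 10 against day 1 (-2.25, -1.65, -1.39 and -1.75), when 24.5% were. The limma adjusted p lay between 1.4e-09 and 0.019. Between week 10 and month 10, Tuba1a, Tuba1b, Tuba4a, Tuba8 and Tubb5 were lower in both genotypes, and Tubb2a and Tubb4b in WT as well. Of all genes, 21.2% were lower in WT and 20% in Mgmt-/- mice. For Tuba8 the values were -2.10 in WT and -1.61 in Mgmt-/- mice, but it was near 0 at month 10, with saline medians of 1.88 and 1.33 normalised counts, so these values rest on few reads. From day 1 to day 5, 0 of 9 members passed in either genotype by limma, with 2 and 1 at an unadjusted p under 0.05.

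Ages were partly in different runs, and run was a term of the fit. WT day 1 livers shared no run with the week 10 or day 5 livers. These 2 differences were thus estimated only through month 10 livers, which shared a run with each age. Without run as a term, the numbers of all genes higher and lower went from 363 and 495 to 1072 and 2268 at week 10. At day 5 they went from 22 and 17 to 491 and 510. Within run 200803Eng, which held day 1 and month 10 livers of both genotypes, the month 10 differences were -2.76, -2.26, -1.73, -1.05, -1.26 and -2.70 for Tuba1a, Tuba1b, Tubb2a, Tubb4b, Tubb5 and Tubb6 in WT, and -2.25, -1.66, -1.39 and -1.76 for Tuba1a, Tuba1b, Tubb5 and Tubb6 in Mgmt-/- mice. That run also held the Mgmt-/- week 10 livers, and within it Tuba1b at week 10 against day 1 no longer passed (-0.86, limma adjusted p = 0.069), while Tuba1a, Tubb5 and Tubb6 did (-1.23, -0.75 and -1.35). For that comparison the numbers of all genes higher and lower were 727 and 933 in the main fit. They were 647 and 556 within that run, and 1285 and 1719 without run as a term. At month 10 against week 10 the median over all genes was 0.36 in WT and 0.18 in Mgmt-/- mice, which moved to 0.74 and 0.55 when all libraries were given one total. The numbers of all genes that rose and fell then went from 3602 and 1923 to 4628 and 1103 in WT and from 3064 and 1980 to 4527 and 968 in Mgmt-/- mice. Under that scaling Tuba1b, Tuba4a and Tubb5 no longer passed in either genotype (-0.34, -0.43 and -0.31 in WT, -0.42, -0.40 and -0.25 in Mgmt-/- mice) and Tuba1c was higher in Mgmt-/- mice (0.62).

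**Figure D5:**
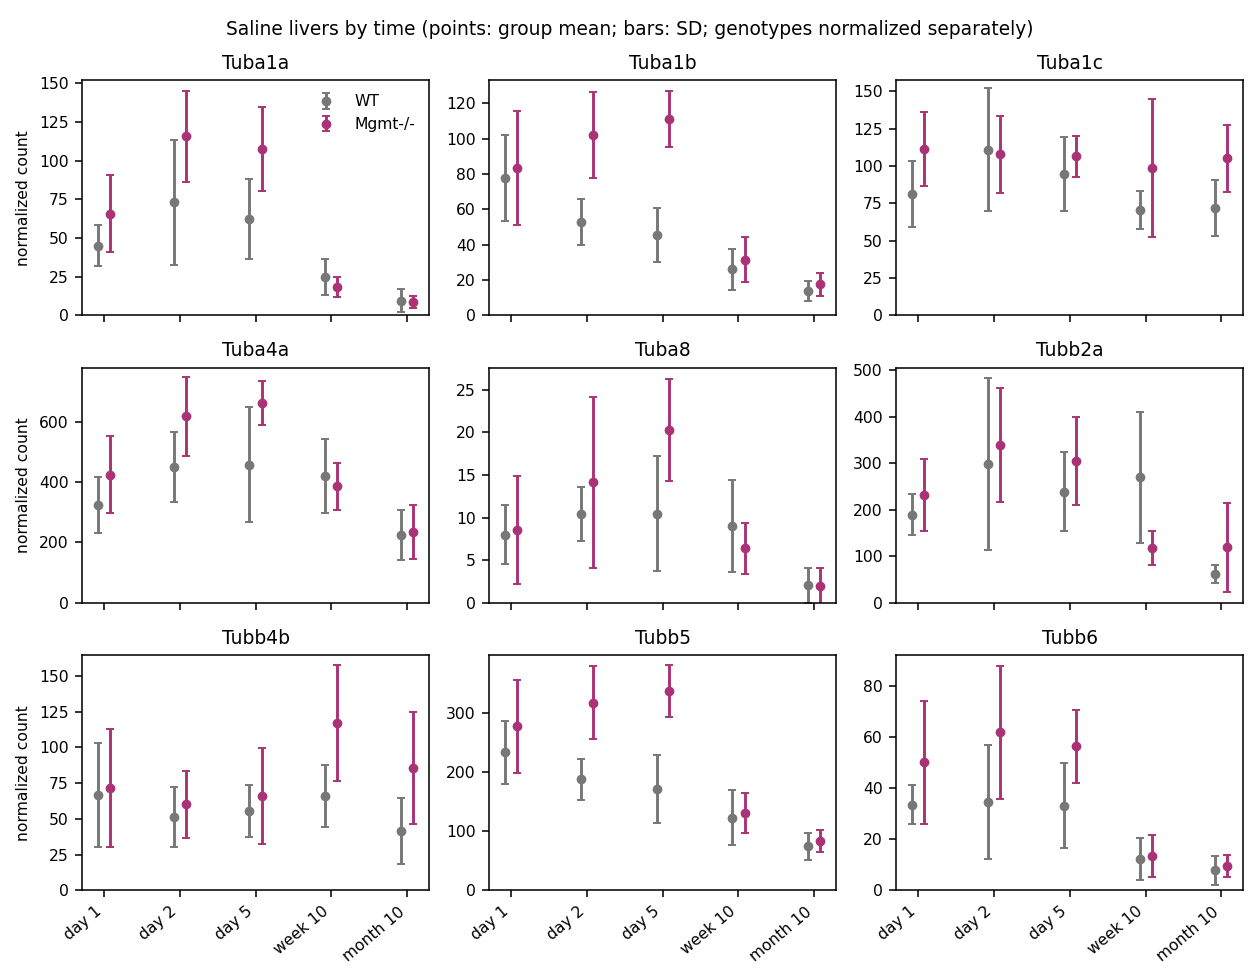
Normalised counts of the 9 tested members in saline livers (mean, with bars of 1 SD) at each age, by genotype. Tuba1a, Tuba1b and Tubb6 are lower at week 10 and month 10 than at day 1 in both genotypes, and Tuba1c is the member that passed no age comparison in either genotype.

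The other genes of the tubulin pathway were counted in the same way in Mgmt-/- livers, and for all genes tested the shares that rose were 9.06%, 12.4%, 11.1%, 7.27% and 4.75% at the 5 times and those that fell 8.64%, 7.5% and 6.71% at the early times. With lists this short, 1 called gene is close to those shares. Newly made tubulin is received by prefoldin, folded in the CCT chaperonin and assembled into dimers by cofactors. Of the 8 CCT subunits, 0 passed at any time by limma, edgeR or DESeq2, with medians between -0.02 and 0.22 and with 2, 1, 1, 0 and 1 at an unadjusted limma p under 0.05 at the 5 times. Of the 6 prefoldin subunits, 1 rose at day 1 (Pfdn4, 0.91), 2 at day 2 (Pfdn4, 0.70, and Vbp1, 0.58) and 1 at day 5 (Pfdn2, 0.88). Of the 8 cofactor genes, Tbcd (-0.81) and Tbcc (-0.63) fell at day 2, Tbcel (0.78), which destabilises tubulin, rose at day 5, and Arl2 (1.01), a small GTPase of the cofactor complex, rose at week 10. Of 4 genes of tubulin mRNA autoregulation (Ttc5, which recognises nascent tubulin, and Scaper, Cnot1 and Cnot11, which link it to mRNA decay), 0 passed at any time by the same tools, with 1, 1, 1, 0 and 0 at an unadjusted limma p under 0.05.

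Among genes that nucleate, modify or use microtubules, the calls were scattered. In the γ-tubulin ring complex, which nucleates microtubules, 1 of 8 tested genes fell at day 1 (Mzt2, -0.61) and none passed later. Of the 8 other tubulin genes in the tables, 2 passed the filter, and of these Tubg1, a γ-tubulin, fell at day 1 (-0.63). Of the stabilisers and plus-end proteins, Map7 rose (0.63) and Tppp fell (-1.30) at day 1, 3 of 10 rose at day 2 (Mapre2, 1.27, Ckap5, 0.65, and Mapre1, 0.60), and Mapt, the tau protein, rose at month 10 (1.27). Of the destabilisers 3 of 7 rose at day 2 (Fignl1, 1.27, Kif18a, 1.01, and Kif2c, 0.68), of which Kif18a and Kif2c are mitotic kinesins and Kif18a passed the filter through the NDMA livers only, and Fignl1 rose at day 5 (1.15). Of the motors of interphase cells, Dynll1, a light chain of dynein, rose at days 1, 2 and 5, at week 10 and at month 10 (1.07, 0.77, 0.74, 1.38 and 0.84), with Dync1h1 at day 2 (1.10) and Kifap3 at week 10 (1.07) as the other genes called out of 16 or 17 tested. Of the tubulin-modifying enzymes, the called genes at day 1 were Agtpbp1 (0.77), a deglutamylase, Ttll12 (0.76) and Agbl3 (-0.83), another carboxypeptidase, out of 8 tested. Agbl3 also fell at day 2 (-1.22), and Agtpbp1 also rose at day 5 (1.01). Ttll12 at day 1 and Agtpbp1 at day 5 passed the filter through the NDMA livers only.

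Actin and intermediate filament genes, the rest of the cytoskeleton, were higher in 11 of 19, 14 of 18, 12 of 18, 12 of 18 and 10 of 19 tested cases and lower in 0 at the 5 times in Mgmt-/- livers, beside the shares of all genes given above (9.06%, 12.4%, 11.1%, 7.27% and 4.75%). Their median log2 fold changes were 0.87, 0.84, 0.74, 1.35 and 0.87. At week 10 the highest values were those of Acta2 (2.33), the actin of smooth muscle and activated stellate cells, which passed the filter through the NDMA livers only, Tagln (2.10), Tagln2 (1.95) and Tmsb10 (1.79), which binds actin monomers. Acta2 was also among the month 10 calls, and there too it passed the filter through the NDMA livers only. In WT, 4, 2 and 1 of 18 rose at days 1, 2 and 5, when 5.01%, 3.33% and 2.22% of all genes tested did. At week 10 and month 10, 0 of the list rose in WT by limma (0 and 1 at an unadjusted p under 0.05), with 2 and 0 of all genes higher.

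Markers of other processes and cell types moved at the same times, and their counts are to be read against the same shares of all genes. Of the proliferation genes, 6 of 28, 13 of 28, 6 of 27, 8 of 15 and 1 of 12 tested rose in Mgmt-/- livers at the 5 times in order. At week 10 the highest values were those of Prc1 (3.13), which bundles the spindle midzone, Birc5 (2.55), Ube2c (2.43) and Nusap1 (2.32). Of the 8 that rose then, 5 (Aurka, Ccnb2, Nusap1, Prc1 and Ube2c) passed the filter through the NDMA livers only, as did Kif11 at day 2 and Top2a, the 1 gene called at month 10. Of 10 macrophage and Kupffer cell markers, 2, 6, 8, 7 and 5 rose at the 5 times and 2 fell at day 1. At week 10 their summed level was 603 to 1489 normalised counts in saline livers (median 1022) and 1757 to 2666 in NDMA livers (median 2057), with Lyz2 the most abundant and none at 0. The stellate cell and fibroblast markers tested (9 of 10 listed) rose in 6 cases at week 10, among them Lum (2.89) and Col1a1 (2.39). Of the 6, Acta2, Col1a1 and Timp1 passed the filter through the NDMA livers only, and Timp1 had mean levels of 0.19 normalised counts with saline and 20.5 with NDMA. Their summed level was 360.5 to 484 (median 406) in saline and 616 to 999.6 (median 737) in NDMA livers, with Dcn the most abundant. At days 1, 2 and 5 the same list went both ways, with 2 genes higher each time (Timp1 and Acta2, of which Timp1 passed the filter through the NDMA livers only) and 4, 3 and 2 lower, among them Lrat, a retinol-storing enzyme of quiescent stellate cells, at days 1 and 2 (-1.36 and -0.77) and Col3a1 at days 2 and 5 (-0.70 and -0.83). At month 10, 4 rose and 0 fell, and of the 4 Acta2 and Col1a1 passed the filter through the NDMA livers only.

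Among cholangiocyte markers, 1 of 2 tested rose at week 10, namely Spp1 (3.13), which is also made by macrophages and injured hepatocytes. Spp1 fell at day 1 (-0.79) and day 5 (-1.41) and rose at month 10 (2.48). The summed level of the 7 listed was 59.4 to 629.9 (median 86.9) in saline and 422 to 1849 (median 830.0) in NDMA livers, Spp1 being the most abundant. Of T cell markers, 1, 3 and 3 of 3 tested rose at days 1, 2 and 5 and 0 of 2 at week 10 (Lck passed the filter at day 2 through the NDMA livers only). At week 10 the summed level was 1.04 to 28.0 (median 15.6) and 10.8 to 37.8 (median 26.5). At day 2 it was 19.8 to 33.4 (median 24.7) in saline and 65.3 to 213 (median 113) in NDMA livers. Of 5 hepatocyte markers, 3, 3, 1 and 1 fell at the first 4 times, and 1 rose at the last, when 8.64%, 7.5%, 6.71% and 3.88% of all genes tested fell at the first 4 times and 2.99% at the last, where 4.75% rose. Their summed level at day 2 was 318790 to 402555 (median 362767) in saline and 199594 to 266146 (median 241145) in NDMA livers. Of 7 endothelial markers, 1 rose at week 10, with summed levels of 246 to 505 (median 389) and 368 to 428 (median 408), and 1 at month 10, in both cases Lyve1 (1.17 and 1.46). At days 1, 2 and 5, 1, 2 and 2 of the 7 rose and 4, 1 and 2 fell, with Lyve1 higher (0.72, 0.97 and 0.77) and Stab2 lower (-1.43, -0.95 and -1.13) each time. Some of these markers rose and others fell at times when tubulin genes rose, and their part in the result was not tested. In WT livers 4, 2 and 2 of the 10 macrophage markers rose at days 1, 2 and 5, and 2, 1 and 2 of 3 T cell markers. Lck at day 1 and Cd3d at day 5 passed the filter through the NDMA livers only. Among genes that fell were Stab2 (-0.97) and Col3a1 (-1.15) at day 1 and Alb (-0.92) at day 2, named as single genes. At day 1, 0 of 7 endothelial markers tested rose, and 2 of 9 stellate cell and fibroblast markers did. Of those 2, Timp1 passed the filter through the NDMA livers only. At day 2, 0 of 5 hepatocyte markers rose. Of all genes, 5.01%, 3.33% and 2.22% rose at days 1, 2 and 5. Those that fell were 378 of 9028 at day 1 and 249 of 8568 at day 2. The part of these WT markers was not tested either.

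The genes whose log2 levels ran closest to each member were found by Pearson's r over the 94 kept Mgmt-/- libraries, which share groups, runs and ages, so that r is a description only. Members were left out of this search and are given separately. Tubb2a was closest to Anxa2 (0.88), Spon2 (0.87) and Anxa5 (0.85), of which the annexins bind membrane phospholipids with calcium. Tuba8 was closest to Anxa5 (0.85), Hsd17b13 (0.84), a lipid droplet protein of hepatocytes, and Aldoa (0.84). Tuba4a was closest to Adh1 (0.89), Fcgrt (0.88) and Proc (0.88), of which Adh1 and Proc are hepatocyte genes. Tubb6 was closest to the cell cycle genes Prc1 (0.90), Ccnb1 (0.89) and Cdk1 (0.89), Tuba1a to Cd63 (0.93), and Tubb4b to H2aj (0.80). Another member was closer still for Tubb6 (Tubb5, 0.8976, against 0.8954 for Prc1) and for Tuba1a (Tuba1b, 0.94). In the 117 WT libraries the 3 genes closest to Tubb6 were others, namely D17H6S56E-5, Rdh5 and Cyp4a31 (each 0.81). Those closest to Tuba1a there were Cd38 (0.88), Slc25a4 (0.87) and Cd53 (0.86).

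Among the members, Tuba1b and Tubb5, the housekeeping isotypes of the 2 subunits, ran closest together (r = 0.95), and Tubb2a and Tuba8 had 0.79. The lowest best match was that of Tuba1c, with 0.67 for Ctsd and 0.62 for its closest member, Tubb2a. Over the 117 WT libraries the closest genes were Anxa5 for Tubb2a (0.67), Hsd17b13 for Tuba8 (0.71), Serpina1c for Tuba4a (0.75), H2aj for Tubb4b (0.76) and Cct7 for Tubb5 (0.87), so that Anxa5, Hsd17b13 and H2aj were among the 3 closest to Tubb2a, Tuba8 and Tubb4b in both genotypes.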

How the data were processed

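The tables hold 213 libraries labelled as liver, 117 WT and 96 Mgmt-/-, of 214 labelled samples (1 Mgmt-/- saline month 10 liver was not analysed here). Comparisons used 117 WT and 94 Mgmt-/- libraries, since 2 Mgmt-/- libraries went against their liver label. According to the study's methods, the authors aligned reads with STAR to GRCm38/mm10, counted with ESAT and normalised the counts by DESeq2's median of ratios. The 2 genotypes are in separate tables and were treated here as normalised separately, which the methods do not state. The deposited values are thus a normalised signal per gene, not raw counts. Versions, annotation and the handling of multiply mapped reads are not given in the sources used here. Each table states genotype, sex, treatment, collection and run per column, and these matched the labels in 213 of 213 libraries. No column was left unused.

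The members and gene lists were chosen with earlier results of these data known. Main tests used limma 3.58.1 (trend, robust) in R 4.3.3 on log2(value + 1) of all genes with a mean of at least 5, with sex and run as terms where they could be fitted, Benjamini-Hochberg adjustment over all genes, and thresholds of 0.05 and 0.58. Whole reads were recovered (tolerance 0.02) in 209 libraries, and 4 were left out of the count tests. The genotype by treatment term used edgeR 4.0.16 on these reads. For NDMA against saline, edgeR and DESeq2 1.42.0 on reads were alternatives. Named genes were mainly all 10 members, up to 4 called genes of each list with the greatest fold change, and the 3 genes nearest to each member. Others were named to say what a list or check holds, or as the most abundant gene of a list. Calls that passed the filter through the NDMA livers only were named as well. The scripts were tested on simulated data. Alternatives were pseudocounts of 0.5 and 5, filters of 0 and 20, no covariates, a common library total, count tests, single runs and leaving out libraries. Each liver was 1 mouse, and intervals and p-values cover the spread between mice. According to the study's methods, treatment was assigned by litter, and mice from separate litters were used where possible. The labels do not name litters, so litter was not a term and mice of 1 litter were treated as independent. Treatment and litter therefore cannot be told apart here.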

Additional observations from a re-analysis of the deposited data

Results flagged for a closer look

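Of 116 groups of 4 to 10 livers tested per member with Dixon's ratio at the 95% level, 7 had 1 liver far from the others, where chance gives about 1 in 20, and these were 7 different libraries. In WT NDMA livers they were Tubb6 at day 2 (168 normalised counts, next 67.2, in a library of 150038 reads), Tuba8 at day 5 (29.5, next 15.6), Tubb2a at week 10 (645, next 203) and Tubb5 at week 10 (160.0, next 118). In Mgmt-/- livers they were Tuba1c at day 2 with saline (163, next 110.0), Tuba8 at week 10 with NDMA (75.0, next 41.0) and Tubb6 at week 10 with NDMA (63.6, next 46.1).

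The NDMA fold change differed between the genotypes by the genotype by treatment term for 4 members at day 2 (Tuba8 2.31, Tubb2a 1.15, Tuba1c 1.08 and Tubb5 0.77), for Tuba1c at day 5 (1.00) and for 6 members at week 10 (Tubb2a 2.96, Tuba8 2.83, Tubb6 1.90, Tuba1a 1.34, Tubb4b 1.04 and Tubb5 0.93). Each was greater in Mgmt-/- mice, and the genotypes were in different runs at these times. These terms also hold WT values below 0, such as those of Tubb2a at day 2 (-0.58) and week 10 (-0.82).

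In the 2 libraries with kidney transcripts, which the comparisons leave out, Tuba1a was at 264 and 322 normalised counts, above the highest kept Mgmt-/- saline liver at day 5 (144). Tubb2b was at 7.08 and 11.97, against at most 1.199 in those livers.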

How the results depend on the processing

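No alternative reversed a called value. Of the values for single called members, 870 kept their side of the thresholds across all alternatives and 86 lost it, 52 of these with 1 library left out and 12 when all libraries were given one total. Of the values for members not called, 1248 stayed so and 35 passed. The number of members called after NDMA in WT was 0 at day 1 within run 200803Eng, 0 at days 2 and 5 without covariates, and 1 at day 2 with no filter or with one total for all libraries. In Mgmt-/- mice it was 2 at day 1 within run 200803Eng and 1 at month 10 with a mean of at least 20, a filter that Tuba8 and Tuba1a do not reach there. With 1 library left out, the number ran from 0 to 3 at day 2 and from 0 to 1 at day 5 in WT, and from 7 to 9 at day 2, 4 to 7 at day 5 and 7 to 8 at week 10 in Mgmt-/- mice. Without run as a term, 1 member in WT and 3 in Mgmt-/- mice were called between day 1 and day 5, and 7 between day 1 and month 10 in Mgmt-/- mice. With one total, 4 members were called between week 10 and month 10 in WT, all lower, and 3 in Mgmt-/- mice, 2 of them lower and Tuba1c higher. The cause of these shifts was not tested. No paired analysis was possible because the replicate identifiers name single mice and do not pair them across groups. Low counts limit Tuba8 at month 10 and Tubb2b at every time.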

Other observations

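The 2 libraries that were dropped from the Mgmt-/- saline day 5 group gave values for every member that belong to no comparison above. Tuba8 was at 0.54 and 3.17 normalised counts, below the lowest kept saline liver of that group (11.4), and Tubb6 at 18.5 and 20.1 and Tuba1c at 40.3 and 61.3 were also below theirs (40.03 and 82.1). Tubb2a was at 175 and 197 (kept livers 188 to 417), Tuba4a at 447 and 587 (524 to 719), Tuba1b at 118 and 188 (88.6 to 129), Tubb5 at 306 and 409 (268 to 378) and Tubb4b at 41.9 and 82.4 (24.0 to 125).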
